A study of Mus musculus with 16 samples.

Results

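A set of 10 genes that mark Kupffer cells and other macrophages was followed in liver RNA, of 25006 genes counted. They are Clec4f, Timd4, Vsig4, Cd5l, Folr2, C1qa, C1qb, C1qc, Csf1r and Ccr2, a set given by name and matched to the table's Ensembl identifiers by symbol. All 10 were in the table and all 10 passed the filter on low counts, as did 13180 genes in all. The livers came from C57BL/6 mice, an inbred strain, given a slurry by mouth through a tube with the liver taken 4 h later. Of the 4 groups, 1 received fast food and drank antibiotic water, 1 received chow and drank antibiotic water, 1 received fast food and drank control water, and 1 received chow and drank control water, with 4 libraries each. The sources used here do not give the antibiotics, how long they were drunk, or the age and sex of the mice. The labels number the replicates without saying that each is a separate mouse, so the p-values may measure only the spread between these samples. Each library holds a piece of whole liver, in which a lower level of a macrophage transcript can come from fewer macrophages or from less of that RNA in each, and these cannot be told apart.

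Kupffer cells are the resident macrophages of the liver sinusoids, where they take up microbes, dying cells and aged red blood cells from blood arriving from the gut. In mice most of them descend from embryonic precursors and renew in place under the growth factor receptor CSF1R, while monocytes that enter from blood carry the chemokine receptor CCR2 and can take on the Kupffer program. Clec4f, Timd4, Vsig4 and Folr2 encode surface receptors, Cd5l a secreted protein, and C1qa, C1qb and C1qc the chains of C1q, which starts the classical complement cascade and is made by macrophages rather than hepatocytes.

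The libraries held between 8954378 and 18954655 counts each. Reads like those of ribosomal RNA, counted over Lars2, Mir6236, Gm20594 and Mir6240 (the rRNA-like share), made up 0.12% to 0.587% of the counts of 9 libraries, while the remaining 7 had 2.45% to 8.42%. The high-share libraries were fast food antibiotic replicates 1, 2 and 4, chow antibiotic replicates 2 and 4, and chow control replicates 1 and 2, so no fast food control library was among them. They were also the 7 with the fewest counts, 8954378 to 15094803, against 18102482 to 18954655 in the 9 others. The split by share is thus also a split by depth. Chow control replicate 3 stood apart for the set: it was the highest of its group for 10 of 10 genes. Calls among the 10 genes that rest on it are given with and without it.

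The genes lie at 8 places in the genome (GRCm38, GENCODE M21 coordinates). Clec4f spans chr6:83644542-83656187, Timd4 chr11:46810800-46844332, Vsig4 chrX:96247203-96293438, Cd5l chr3:87357881-87371073, Folr2 chr7:101839988-101857194 and Ccr2 chr9:124101950-124113557. C1qb, C1qc and C1qa lie side by side on the minus strand within 18675 bases, chr4:136880129-136898803. Folr2 overlaps the antisense gene Gm10602 and the pseudogene Gm45319, and Csf1r overlaps Mir6983 and, on the other strand, Hmgxb3. Since the sources used here do not say whether the counting used strand, the values of both genes may hold reads of these neighbours.

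The 250 bases before the starts of the genes were searched for 3 short motifs of macrophage transcription factors. The RefSeq promoter table (GRCm38.p6) was used, on both strands. The search used 9 promoters for 8 of the genes, counting 2 starts of Folr2. No entry was found for C1qa. Csf1r was left out with its chromosome, which the count over all promoters did not leave out. TGCTGA, the core of the element bound by the MAF family of transcription factors, was in 6 of the 9, against 16.1% of 32851 promoters. Both starts of Folr2 are among the 6. GAGGAA, the core letters bound by PU.1, was in 4 of the 9 (23.3% of all), and AGGTCA, the core of many nuclear receptor elements, in 3 of the 9 (14.0% of all). These matches are of letters only, and the count was read after the genes were chosen. Shown are the windows of Timd4, Cd5l and C1qb and of the second start of Folr2, each 5′ to 3′ toward the start, with TGCTGA or its reverse complement in capitals. They cover chr11:46810549-46810798 (plus strand), chr3:87357631-87357880 (plus), chr7:101845332-101845581 (minus) and chr4:136886201-136886450 (minus).
Timd4: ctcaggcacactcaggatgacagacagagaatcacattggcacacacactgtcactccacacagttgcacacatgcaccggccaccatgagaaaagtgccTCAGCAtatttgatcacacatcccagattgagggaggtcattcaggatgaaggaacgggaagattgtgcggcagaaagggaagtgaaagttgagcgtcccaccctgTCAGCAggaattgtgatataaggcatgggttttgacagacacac
Cd5l: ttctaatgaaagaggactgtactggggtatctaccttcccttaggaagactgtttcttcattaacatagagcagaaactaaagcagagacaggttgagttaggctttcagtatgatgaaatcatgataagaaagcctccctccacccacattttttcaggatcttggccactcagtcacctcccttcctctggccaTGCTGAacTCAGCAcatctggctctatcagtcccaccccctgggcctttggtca
Folr2: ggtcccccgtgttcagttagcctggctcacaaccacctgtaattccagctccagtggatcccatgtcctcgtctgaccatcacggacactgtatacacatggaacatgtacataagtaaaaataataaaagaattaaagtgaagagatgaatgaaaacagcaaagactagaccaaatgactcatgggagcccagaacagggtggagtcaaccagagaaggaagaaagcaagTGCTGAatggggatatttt
C1qb: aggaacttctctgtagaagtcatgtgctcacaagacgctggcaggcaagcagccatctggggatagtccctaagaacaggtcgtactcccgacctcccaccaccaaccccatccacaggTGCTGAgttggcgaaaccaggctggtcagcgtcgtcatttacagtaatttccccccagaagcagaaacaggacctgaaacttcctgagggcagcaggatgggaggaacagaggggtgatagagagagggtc
In Cd5l the 2 matches lie on opposite strands between 54 and 41 bases before the start, and in Timd4 they begin 150 and 44 bases before it. The Folr2 match begins 19 bases before that start and the C1qb match 131 bases before its own.

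The set differed widely in level. Per length of transcript, Cd5l was the highest in fast food control livers at 52.3 ± 10.1 RPKM (SD, n = 4). Clec4f (34.4 ± 3.10 RPKM), C1qa (32.9 ± 6.20 RPKM) and C1qb (28.9 ± 3.89 RPKM) followed, and their libraries overlapped. Vsig4 (20.8 ± 2.14 RPKM) and C1qc (17.3 ± 2.52 RPKM) also overlapped with each other. Csf1r (10.9 ± 1.03 RPKM), Folr2 (5.01 ± 0.762 RPKM), Timd4 (3.15 ± 0.53 RPKM) and the monocyte receptor gene Ccr2 (0.441 ± 0.106 RPKM) were the lowest, each clear of its neighbours. Ccr2 ranked last by RPKM in all 4 groups, and Vsig4, C1qc and Csf1r held ranks 5, 6 and 7 in all 4. In chow antibiotic livers the top ranks were C1qb (19.9 ± 1.76 RPKM), C1qa (19.6 ± 1.23 RPKM), Cd5l (16.7 ± 3.27 RPKM) and Clec4f (16.7 ± 2.73 RPKM), which overlapped.

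Most of the genes were lower in the livers of mice that drank antibiotic water, with both meals. With chow, 9 of the 10 were lower in antibiotic than in control water by edgeR's quasi-likelihood test (adjusted p under 0.05 over 13180 genes), where 13.2% of all genes were called lower and 23.8% either way. With fast food, 7 of the 10 were lower, where 2.22% of all genes were called lower and 5.99% either way. The median log2 fold change of the 10 genes was -1.14 with chow, against -0.0057 over all genes, and -0.95 with fast food, against 0.018 over all genes. The libraries of the 2 waters did not overlap for 7 of 10 genes with chow (13.6% of all genes were without overlap and lower) and for 9 of 10 with fast food (8.38%). None of the 10 was called higher in antibiotic water in either meal.

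**Figure D1:**
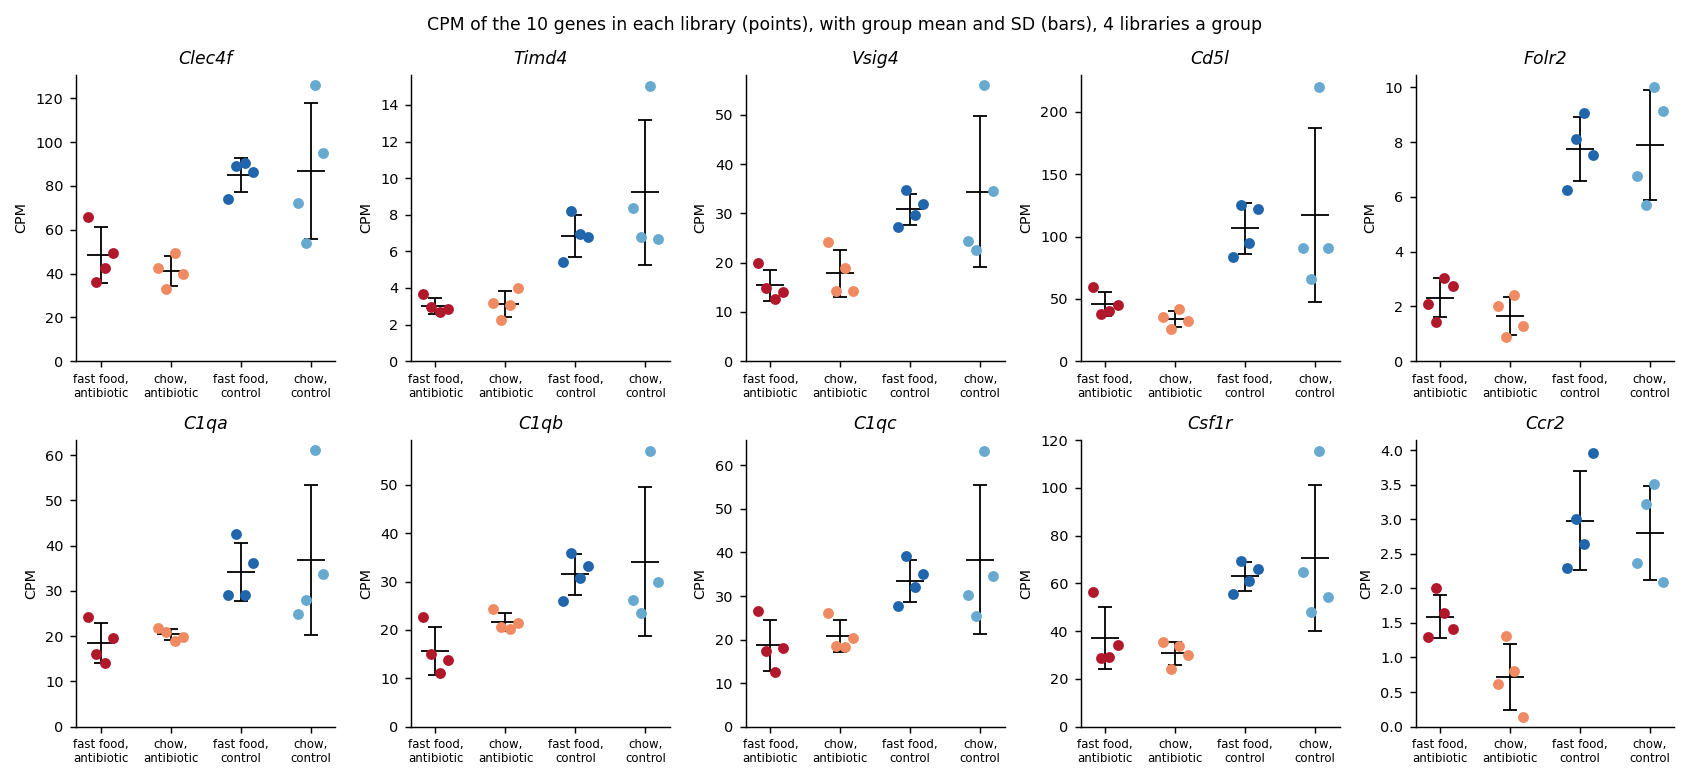
CPM (scaled by TMM library sizes; y axes start at 0) of the 10 genes in each of the 16 libraries, by meal and water; points are libraries and bars the group mean and SD. The 4 fast food antibiotic and 4 chow antibiotic libraries lie below the control-water libraries for Timd4, Cd5l, Folr2, C1qa and Ccr2.

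Folr2, the gene of folate receptor beta, had the largest fold change of the 10 in both meals. With chow it had 2.00, 0.876, 2.41 and 1.28 CPM in the antibiotic livers, against 6.76, 5.70, 10.01 and 9.15 CPM in the control livers. All 4 antibiotic values were below all 4 control values, which made the gene 4.63-fold lower (log2 fold change -2.21 ± 0.29, SE; edgeR adjusted p = 0.000105). With fast food it had 2.09, 1.44, 3.04 and 2.73 CPM in the antibiotic livers, against 6.26, 8.12, 9.07 and 7.52 CPM in the control livers. Again the groups were apart (log2 fold change -1.72 ± 0.28, edgeR adjusted p = 0.00733). The counts behind these values were 9 to 59 reads per antibiotic library and 63 to 202 per control library.

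Timd4 encodes TIM-4, a phosphatidylserine receptor for dying cells that in mouse liver marks Kupffer cells of embryonic origin. It had 3.17, 2.28, 3.10 and 3.98 CPM in chow antibiotic livers, against 8.37, 6.80, 15.02 and 6.69 CPM in chow control livers. Replicate 3 was the high control value, and the groups did not overlap (log2 fold change -1.58 ± 0.26, edgeR adjusted p = 0.000475). With fast food it had 3.68, 2.94, 2.68 and 2.83 CPM in antibiotic livers, against 5.40, 8.22, 6.93 and 6.81 CPM in control livers. These groups did not overlap either (-1.18 ± 0.25, edgeR adjusted p = 0.0198).

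Clec4f, a C-type lectin receptor that in mice is made almost only by Kupffer cells, had 42.6, 32.9, 49.2 and 39.9 CPM in chow antibiotic livers, against 72.5, 53.8, 126 and 94.9 CPM in chow control livers. The lowest control library, replicate 2, was above the highest antibiotic library (log2 fold change -1.08 ± 0.22, edgeR adjusted p = 0.00294). In fast food antibiotic livers it had 65.7, 36.3, 42.7 and 49.2 CPM, against 73.8, 89.2, 90.7 and 86.5 CPM in fast food control livers. Replicate 1 of the antibiotic group came nearest to the controls without reaching them (-0.81 ± 0.22, edgeR adjusted p = 0.0439). Vsig4, a complement receptor with which Kupffer cells catch opsonized particles, had 24.2, 14.2, 18.97 and 14.2 CPM in chow antibiotic livers, against 24.5, 22.5, 56.0 and 34.6 CPM in chow control livers. Here antibiotic replicate 1 lay above control replicate 2, so the groups overlapped (-0.94 ± 0.25, edgeR adjusted p = 0.0141, and 0.0535 without chow control replicate 3). With fast food Vsig4 had 20, 14.9, 12.6 and 14.0 CPM in antibiotic livers, against 27.2, 34.7, 29.7 and 31.8 CPM in control livers, with no overlap (-1.01 ± 0.25, edgeR adjusted p = 0.0345).

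Cd5l encodes the secreted scavenger protein AIM, which binds IgM and is made by tissue macrophages. It had 35.6, 26.2, 42.1 and 32.2 CPM in chow antibiotic livers, against 91.0, 66.0, 220.3 and 91.0 CPM in chow control livers. Replicate 3 was the highest control by a wide margin, and the groups were apart with or without it (log2 fold change -1.78 ± 0.31, edgeR adjusted p = 0.00121). In fast food antibiotic livers it had 59.9, 38.2, 40.7 and 44.9 CPM, against 83.8, 125, 94.5 and 123 CPM in fast food control livers. All 4 of those antibiotic libraries were lower than the 4 controls (-1.22 ± 0.31, edgeR adjusted p = 0.0361).

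The 3 C1q chains had smaller log2 fold changes than Folr2 and Cd5l in both meals. C1qa had 21.8, 20.8, 18.9 and 19.9 CPM in chow antibiotic livers, against 24.8, 27.9, 61.02 and 33.6 CPM in chow control livers, with a narrow gap between the groups (log2 fold change -0.86 ± 0.24, edgeR adjusted p = 0.0172, and 0.0645 without chow control replicate 3). C1qb had 24.4, 20.6, 20.1 and 21.4 CPM in chow antibiotic livers, against 26.2, 23.4, 57.0 and 29.9 CPM in chow control livers. It was the 1 gene not called with chow (-0.66 ± 0.25, edgeR adjusted p = 0.0655), and antibiotic replicate 1 overlapped control replicate 2. C1qc, with -0.89 ± 0.26 (edgeR adjusted p = 0.0223, and 0.0862 without chow control replicate 3), overlapped through antibiotic replicate 1 at 26.0 CPM, against 25.5 CPM in control replicate 2.

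With fast food, C1qa (log2 fold change -0.89 ± 0.24, edgeR adjusted p = 0.0425) and C1qb (-1.01 ± 0.25, edgeR adjusted p = 0.0335) were called and C1qc was not (-0.85 ± 0.26, edgeR adjusted p = 0.0621). C1qa had 24.3, 16.01, 14.1 and 19.6 CPM in fast food antibiotic livers, against 29.1, 42.5, 29.1 and 36.1 CPM in fast food control livers. For all 3 chains the 2 groups were apart. Of the summed C1q CPM, C1qb made up 26.9% to 31.0% in fast food antibiotic livers, 33.8% to 35.1% in chow antibiotic livers, 30.5% to 33.4% in fast food control livers and 30.5% to 32.3% in chow control livers. The share of C1qb was thus higher in the chow antibiotic libraries than in the other 12, a difference that was not tested.

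Csf1r, the receptor for the growth factors CSF1 and IL-34 on which macrophages depend, had 35.2, 24.3, 33.5 and 30.1 CPM in chow antibiotic livers, against 64.7, 47.9, 116 and 54.2 CPM in chow control livers. These groups did not overlap (log2 fold change -1.20 ± 0.26, edgeR adjusted p = 0.00428). With fast food it had 56.5, 28.6, 29.2 and 34.0 CPM in antibiotic livers, against 55.6, 69.2, 60.8 and 66.0 CPM in control livers. Antibiotic replicate 1 reached the controls, and the gene was not called there (-0.77 ± 0.26, edgeR adjusted p = 0.0825).

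Ccr2, the receptor for CCL2 that marks classical monocytes and the macrophages they form, had 0.611, 1.31, 0.803 and 0.142 CPM in chow antibiotic livers, against 2.36, 3.23, 3.52 and 2.09 CPM in chow control livers. The groups were apart (log2 fold change -1.89 ± 0.36, edgeR adjusted p = 0.00139), on 1 to 15 reads per antibiotic library and 22 to 71 per control library. In fast food antibiotic livers it had 1.29, 2.01, 1.65 and 1.41 CPM, against 2.30, 3.00, 2.65 and 3.96 CPM in fast food control livers. No library overlapped there, and the gene was not called (-0.89 ± 0.32, edgeR adjusted p = 0.0978).

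**Figure D2:**
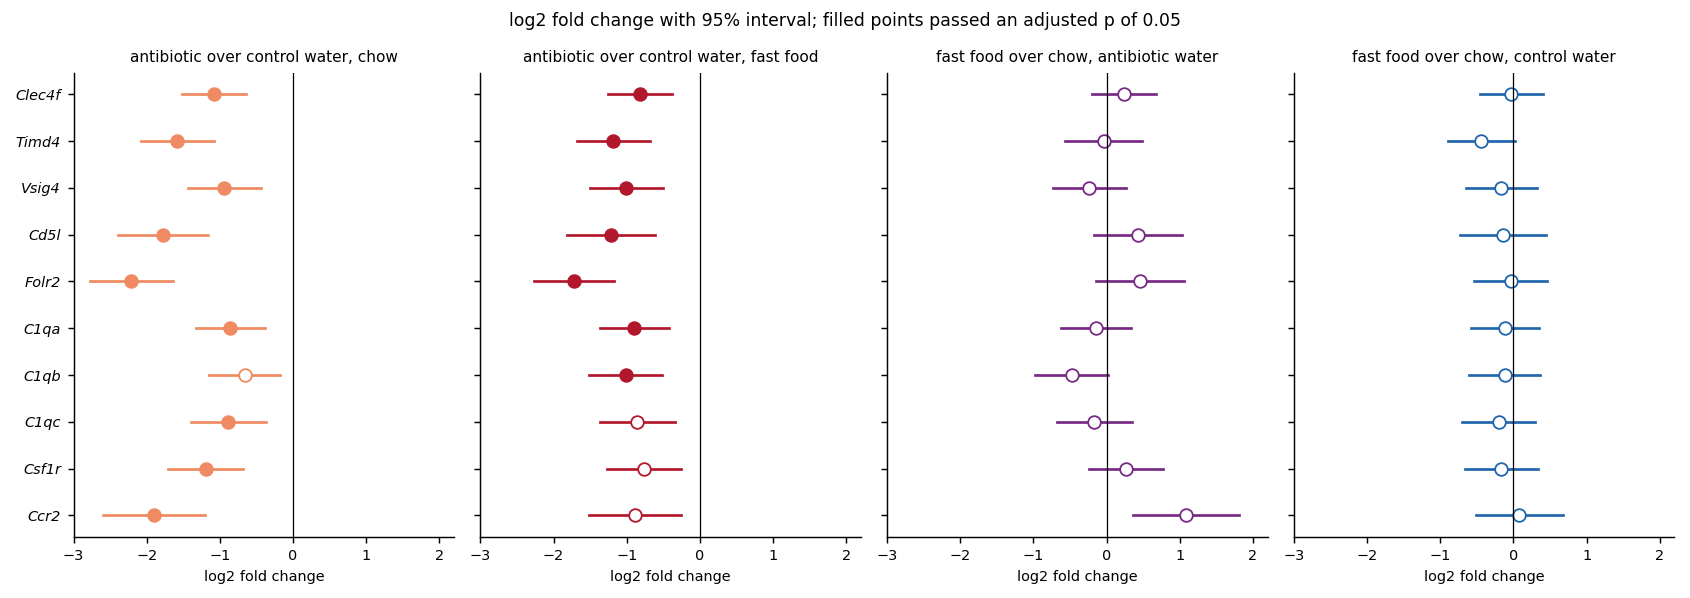
Log2 fold change of each gene (points) with its 95% interval (lines) in 4 comparisons; filled points passed an adjusted p of 0.05. All 10 genes lie left of 0 in both comparisons of antibiotic over control water, from -2.21 to -0.66 with chow and from -1.72 to -0.77 with fast food, and none is filled in the comparisons of fast food over chow.

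In a contrast of antibiotic over control water averaged over both meals, which was chosen after seeing the data, 10 of the 10 genes were lower (edgeR adjusted p from 1.82e-05 for Folr2 to 0.00314 for C1qc). Among all genes 27.5% were called in that contrast and 14% were called lower. For 5 of the 10 genes, Timd4, Cd5l, Folr2, C1qa and Ccr2, all 8 antibiotic libraries were below all 8 control-water libraries, as for 1.37% of all genes. The averaged log2 fold changes ran from -1.97 ± 0.20 for Folr2 to -0.84 ± 0.18 for C1qb.

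The count of calls with fast food depended on single libraries. It was 2 of 10 without fast food antibiotic replicate 2 or 3 or fast food control replicate 1 or 4, and 1 of 10 without fast food antibiotic replicate 4 or fast food control replicate 2 or 3. It was 9 without fast food antibiotic replicate 1. Over all 16 fits that left out a library, the number of genes called of all those tested ran from 78 to 1102, while the log2 fold change of each of the 10 genes stayed negative. Folr2 kept its call in 16 of 16 such fits in both meals. With chow the count of calls was 6 without chow control replicate 3, which lost Vsig4, C1qa and C1qc, and the median log2 fold change of the 10 genes was then -0.84.

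The rRNA-like share moved with the comparison in fast food livers, where 3 of 4 antibiotic libraries and 0 of 4 control libraries had a share over 1%. Depth moved with the share, and the 2 cannot be told apart here. With the share as a covariate, or its split at 1% as a model term, 0 of the 10 genes and 0 of all genes passed with fast food in edgeR, where 6 and 7 of the 10 had an unadjusted p under 0.05 and the median log2 fold change of the 10 genes was -0.79 in either fit. In fast food antibiotic replicate 3, the 1 library of its group with a low share, 10 of 10 genes were below all 4 controls (25.2% of all genes were). The 10 genes summed to 170 CPM in that library, against 337 to 455 CPM in the controls. With chow each side held 2 libraries of each water. On the low-share side 10 of 10 genes were lower in both antibiotic libraries than in both controls (32.1% of all genes), with sums of 208 and 216 CPM in antibiotic livers, against 391 and 728 CPM in control livers. On the high-share side 10 of 10 were also lower in both (29.5% of all genes), with sums of 162 and 183 CPM in antibiotic livers, against 283 and 351 CPM in control livers. In a fit of these 4 libraries alone 0 of the 10 passed in edgeR (7 at an unadjusted p under 0.05), as did 3 of all genes, and the median log2 fold change of the 10 genes was -0.91.

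**Figure D3:**
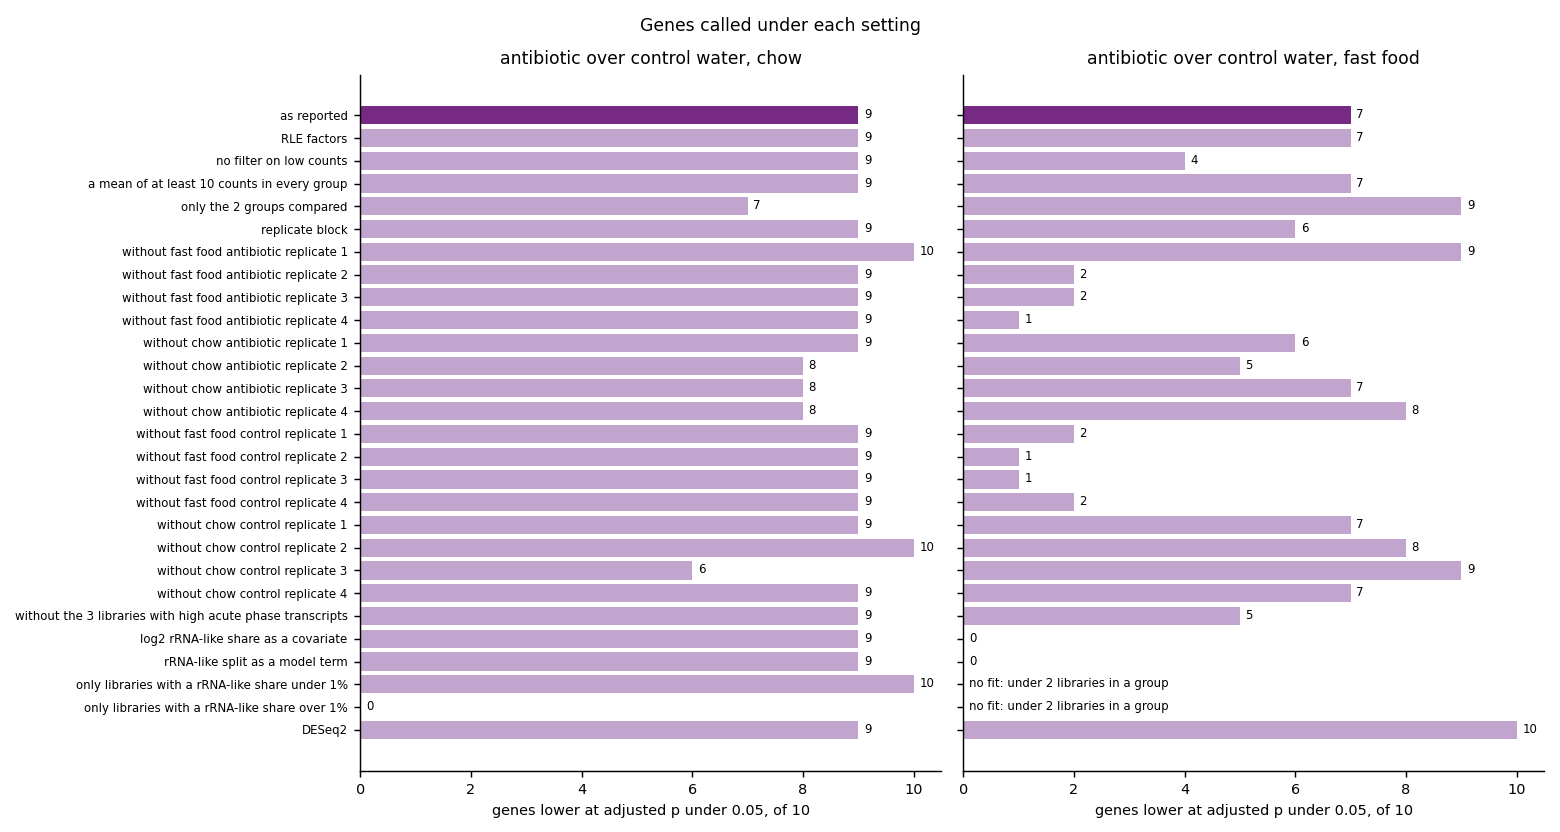
Number of the 10 genes called lower in antibiotic than in control water (x axis) under each setting (rows), with chow (left) and with fast food (right); dark bars are the counts as reported, 9 and 7. With chow the count stays between 6 and 10 except among the libraries with a share over 1%, where it is 0, and with fast food it ranges from 0 to 10.

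The meal did not change any of the 10 genes past the threshold. In control water 0 of 10 were called between fast food and chow by edgeR (0 at an unadjusted p under 0.05, 0 by DESeq2), where 0.577% of all genes were called. Their log2 fold changes ran from -0.44 ± 0.24 for Timd4 to 0.083 ± 0.31 for Ccr2. The 95% interval for Clec4f was -0.46 to 0.40, that for Folr2 -0.54 to 0.46 and that for C1qa -0.58 to 0.35. These intervals use a normal quantile and are narrower than the F test implies. Changes in either direction of these sizes or somewhat larger therefore remain possible. In antibiotic water 0 of 10 were called by edgeR, where 13.7% of all genes were. At an unadjusted p under 0.05 there was 1, Ccr2, which DESeq2 also called.

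Ccr2 had 1.29 to 2.01 CPM in fast food antibiotic livers and 0.142 to 1.31 CPM in chow antibiotic livers. These ranges overlapped by 1 library on each side (log2 fold change 1.09 ± 0.37, edgeR adjusted p = 0.0587). It passed without chow antibiotic replicate 2 (1.44 ± 0.38, edgeR adjusted p = 0.0354) and with DESeq2 (adjusted p = 0.0273). It was 0.84 ± 0.33 without chow antibiotic replicate 4, which held 1 read (edgeR adjusted p = 0.106), and the adjusted p was 0.18 in a fit of the 2 groups alone. In a fit that left out 3 libraries rich in acute phase transcripts it was 0.72 ± 0.36 (edgeR adjusted p = 0.16). The 9 other genes had log2 fold changes of fast food over chow between -0.47 (C1qb) and 0.45 (Folr2) in antibiotic water.

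Whether the antibiotic effect depended on the meal was tested as the interaction. None of the 10 genes passed in edgeR (0 at an unadjusted p under 0.05, 0 by DESeq2), where 3.94% of all genes did. The interaction was 1.01 ± 0.48 for Ccr2 (log2 scale, edgeR adjusted p = 0.239), 0.56 ± 0.43 for Cd5l and between -0.35 and 0.49 for the other 8. In the test for any difference among the 4 groups, 10 of 10 genes passed, where 32.6% of all genes did, with adjusted p from 9.35e-05 for Folr2 to 0.0131 for C1qc.

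Within groups the genes varied together. Over the 16 libraries, after subtracting each group's mean from the log2 CPM, the 45 pairs of genes had a median Pearson r of 0.78 (lowest -0.22, highest 0.98), given as a description since the libraries share depth and the rRNA-like reads. Without chow control replicate 3 the median was 0.58. C1qb and C1qc were the closest pair at 0.98 (0.97 without that library). Ccr2 stood apart from the rest, with a median r of 0.0030 to the other 9 genes, as did Folr2 to a lesser degree with 0.34. Ccr2 had only 1 to 78 reads per library and Folr2 9 to 202, and the part of counting noise in these low values was not tested. Fast food antibiotic replicate 1 was the highest of its group for 8 of the 10 genes, and fast food control replicate 1 the lowest of its group for 9. The coefficient of variation in fast food control livers was 19.3% for Cd5l, 18.9% for C1qa and 9.02% for Clec4f. In chow control livers it was 59.6% for Cd5l, 44.9% for C1qa and 35.9% for Clec4f with replicate 3, and 17.5%, 15.6% and 27.9% for the same genes without it.

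The genes most like the set, by Pearson r over 16 libraries between a gene's log2 CPM and the mean standardized log2 CPM of the 10, were Cfp (0.965), Ctss (0.965), Aif1 (0.958), Fcgr1 (0.957) and Lyz2 (0.955). Cfp encodes properdin, the stabilizer of the alternative complement convertase, Ctss the lysosomal protease cathepsin S, Aif1 the actin-binding protein IBA1, Fcgr1 a high-affinity IgG receptor and Lyz2 macrophage lysozyme. After subtracting group means they were Ctss (0.960), Adgre1 (0.952), Adgre5 (0.901), Cfp (0.896) and Cyba (0.888). Adgre1 encodes F4/80, an adhesion receptor used to stain mouse macrophages, and Cyba a subunit of the phagocyte NADPH oxidase.

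Ratios of CPM within a library were computed for 6 pairs of genes, and 3 of them did not overlap between waters with chow, while none was free of overlap with fast food. The ratio of Folr2 to C1qa CPM was 0.0861 to 0.216 in fast food antibiotic livers, against 0.191 to 0.312 in fast food control livers, so these overlapped. With chow it was 0.0420 to 0.128 in antibiotic livers, against 0.164 to 0.273 in control livers, and these did not overlap. The ratio of Cd5l to Clec4f CPM was 0.912 to 1.05 in fast food antibiotic livers, against 1.04 to 1.42 in fast food control livers, which also overlapped. With chow that ratio was 0.795 to 0.856 in antibiotic livers, against 0.959 to 1.75 in control livers, again without overlap. Cd5l over C1qa was 1.26 to 2.23 in chow antibiotic livers, against 2.37 to 3.67 in chow control livers, and overlapped with fast food. Clec4f over C1qa, C1qa over Csf1r and Ccr2 over Clec4f overlapped between waters with both meals, and the mean of Ccr2 over Clec4f was 0.0356 in fast food antibiotic and 0.0350 in fast food control livers. Within antibiotic livers Cd5l over Clec4f was higher in all 4 fast food libraries than in all 4 chow libraries. These ratios cancel the library scaling, and they were chosen after the values were seen and not tested.

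**Figure D4:**
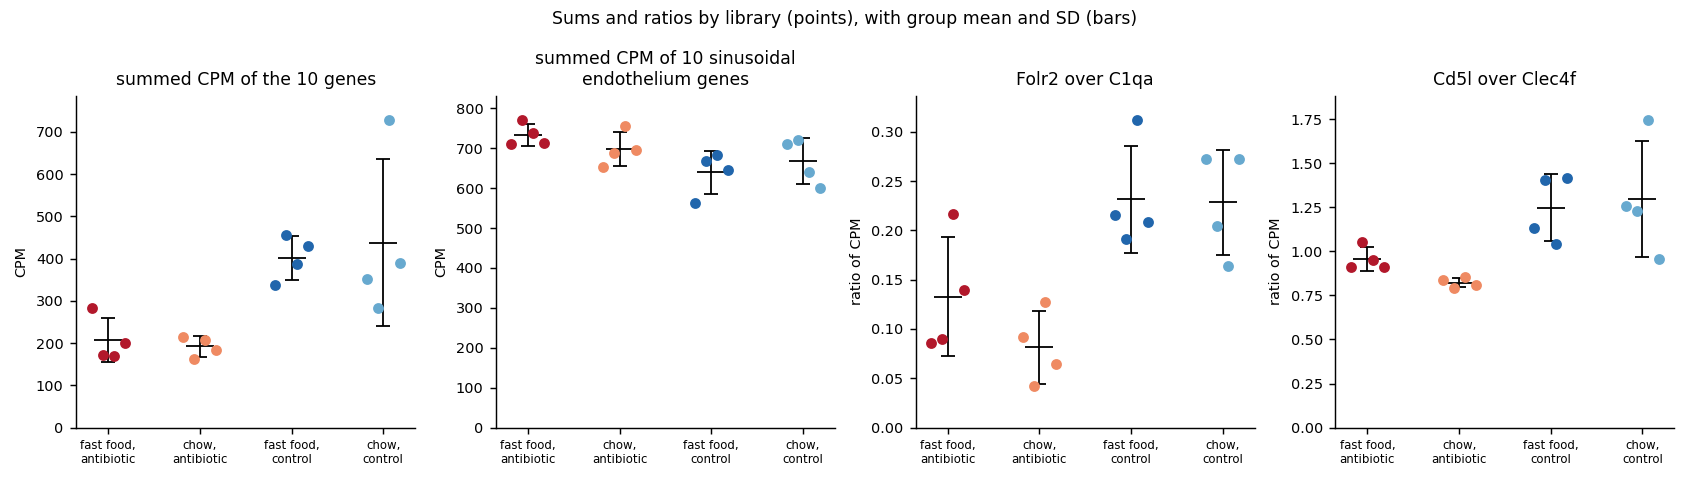
Summed CPM of the 10 genes, summed CPM of 10 sinusoidal endothelium genes, and the ratios of Folr2 to C1qa and of Cd5l to Clec4f CPM (y axes start at 0) in each library (points), with group mean and SD (bars). The sums of the 10 genes are 170 to 283 CPM in fast food antibiotic and 162 to 216 CPM in chow antibiotic libraries, against 337 to 455 CPM in fast food control and 283 to 728 CPM in chow control libraries, while the endothelial sums overlap between waters with chow and are higher in antibiotic water with fast food.

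Other macrophage genes, from lists that hold none of the 10, were lower in part. Of 18 pan-macrophage genes, 11 were lower and 0 higher in antibiotic than in control water with chow (median log2 fold change -0.72). Without chow control replicate 3 it was 7, and the chow values of single genes below include that library. At 11 of 18 the count stood beside 13.2% of all genes called lower. With fast food 3 were lower and 0 higher (median -0.44; 0 to 7 lower when 1 library was left out, and 6 by DESeq2). Aif1 had 0.770 ± 0.142 CPM in chow antibiotic livers and 3.13 ± 2.19 CPM in chow control livers (SD, n = 4 each), which was past the threshold (-2.005 ± 0.43 on the log2 scale, edgeR adjusted p = 0.00327). It fell with fast food too (-1.72 ± 0.42, edgeR adjusted p = 0.0307), a call kept in 10 of 16 fits that left out a library. Fcgr1 (-1.997 ± 0.42 with chow, -1.40 ± 0.40 with fast food) and Lyz2 (-1.13 ± 0.25 and -1.10 ± 0.25) were called in both meals as well, with the fast food call kept in 4 of 16 such fits for Fcgr1 and 11 of 16 for Lyz2. Adgre1 had 7.97 ± 2.32 CPM in chow antibiotic livers and 33.0 ± 28.0 CPM in chow control livers (-2.04 ± 0.44, edgeR adjusted p = 0.00504), and was not called with fast food (-1.14 ± 0.43, edgeR adjusted p = 0.117). Cd68, a lysosomal membrane protein of macrophages, was not called in either meal (-0.12 ± 0.27 with chow, -0.44 ± 0.27 with fast food).

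Fewer calls were made among the other 12 genes of the Kupffer cell list, whose difference from the 10 was not tested. With chow 2 were lower and 1 higher, and with fast food 1 was lower and 0 higher, with medians of -0.13 and -0.29. The 3 of 12 called with chow were near the 23.8% of all genes. The count lower with chow was 1 without chow control replicate 3, and that with fast food was 0 without fast food antibiotic replicate 2 or 4 or fast food control replicate 1, 2 or 3. Fcna, encoding ficolin A of the lectin complement pathway, was lower in both (-0.53 ± 0.19, edgeR adjusted p = 0.046 with chow, and -0.79 ± 0.19, edgeR adjusted p = 0.0275 with fast food), and kept its call in 5 of 16 fits with chow and 11 of 16 with fast food when a library was left out. Nr1h3, the gene of the oxysterol receptor LXR-alpha that hepatocytes also express, was lower with chow (-0.54 ± 0.14, edgeR adjusted p = 0.0124). Hmox1, the heme-degrading enzyme, rose to 76.5 ± 54.5 CPM in chow antibiotic livers, against 24.7 ± 9.71 CPM in chow control livers (1.61 ± 0.39, edgeR adjusted p = 0.00957). Cd163, the haptoglobin-hemoglobin scavenger receptor, had 34.0 ± 7.05 CPM in chow antibiotic and 41.8 ± 4.31 CPM in chow control livers and was not called (-0.29 ± 0.20, edgeR adjusted p = 0.314). Clec1b, the podoplanin receptor CLEC-2, had 20.3 ± 4.05 CPM in chow antibiotic and 18.6 ± 3.06 CPM in chow control livers (0.14 ± 0.18, edgeR adjusted p = 0.61), and Marco, a scavenger receptor, was not called either (0.48 ± 0.60). With fast food the log2 fold changes of Cd163, Clec1b and Marco were -0.42 ± 0.20, 0.16 ± 0.18 and -0.28 ± 0.62, none of them called.

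**Figure D5:**
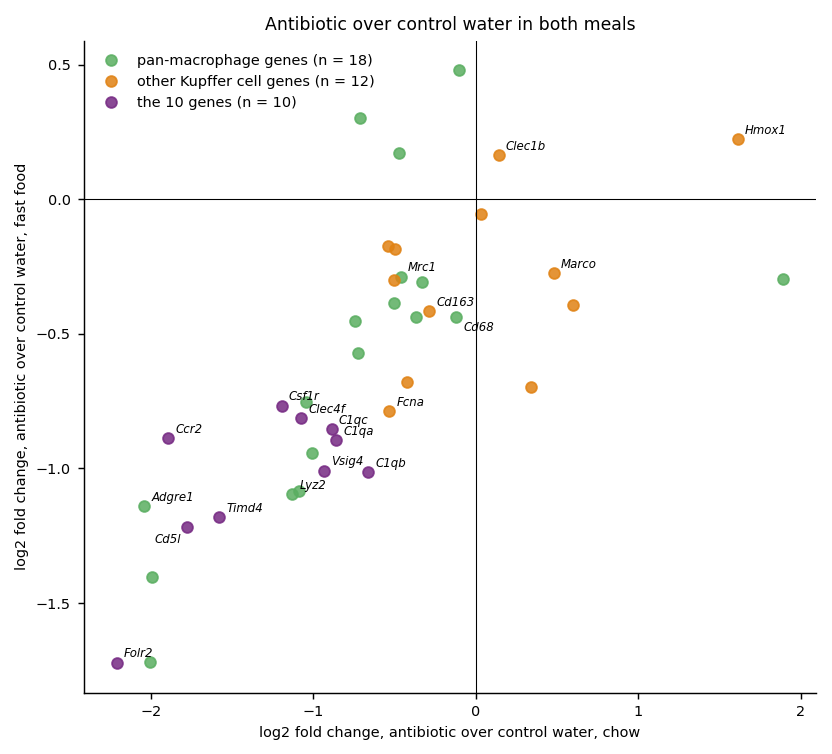
Log2 fold change of antibiotic over control water with chow (x axis) and with fast food (y axis) for the 10 genes, 12 other Kupffer cell genes and 18 pan-macrophage genes; each point is a gene and the 2 axes share no library. The 10 genes all lie at or below -0.66 on the x axis and -0.77 on the y axis, while Clec1b and Hmox1 lie above 0 on both.

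Among 11 tested genes of monocytes and recruited macrophages, 1 was lower and 3 higher with chow, beside the 23.8% of all genes called either way. The count higher was 1 without chow control replicate 3 and 2 without chow control replicate 1 or 4, and reached 4 without others. Cx3cr1, the fractalkine receptor, had 0.115 ± 0.106 CPM in chow antibiotic livers and 0.767 ± 0.156 CPM in chow control livers (-2.53 ± 0.60, edgeR adjusted p = 0.00642). Cd9 (0.77 ± 0.16), Gpnmb (1.52 ± 0.46) and Nr4a1 (2.35 ± 0.76) rose, and of these Cd9 kept its call in 16 of 16 fits that left out a library, Gpnmb in 14 and Nr4a1 in 11. Cx3cr1 kept its call in 16 of 16. With fast food edgeR called 0 of 11 (3 at an unadjusted p under 0.05, 1 by DESeq2). Of 7 tested ligands and niche signals, 0 were called in either meal by edgeR or DESeq2 (1 with chow and 0 with fast food at an unadjusted p under 0.05). Csf1, a ligand of CSF1R, had 15.1 ± 15.7 CPM in chow antibiotic and 10.1 ± 4.02 CPM in chow control livers, and Il34, the other ligand, 1.59 ± 0.935 and 1.72 ± 0.373 CPM. Ccl2, the ligand of CCR2, did not pass the filter, with 0 to 2 reads in fast food antibiotic, 1 to 178 in chow antibiotic, 0 to 6 in fast food control and 3 to 36 in chow control libraries.

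The 14 tested complement genes act with or beside C1q and are mostly made by hepatocytes. With chow 3 were higher and 2 lower, beside the 23.8% of all genes called either way. The count higher was 0 without chow control replicate 3 and 1 or 2 without any other library of the 2 chow groups, and the count lower was 1 without chow antibiotic replicate 1, 2 or 4 or chow control replicate 4. The central component gene C3 rose to 15070 ± 2708 CPM in chow antibiotic livers, against 9410 ± 1536 CPM in chow control livers (0.68 ± 0.22, edgeR adjusted p = 0.0348), as did Masp1, a lectin pathway protease (0.41 ± 0.13). C8a and C9, of the membrane attack complex, fell (-1.79 ± 0.24 and -0.84 ± 0.24), C8a in 16 of 16 fits that left out a library. With fast food edgeR called 0 of 14 (6 at an unadjusted p under 0.05, 2 by DESeq2). Of 4 tested macrophage cytokine genes, edgeR called 0 in either meal (1 each at an unadjusted p under 0.05, and by DESeq2 0 with chow and 1 with fast food).

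Between meals 1 gene of these lists, Cd9, was lower after fast food than after chow in control water (-0.89 ± 0.17, edgeR adjusted p = 0.026). That call was lost without chow control replicate 1, 3 or 4 or without any 1 fast food control library (edgeR adjusted p up to 0.0929). In antibiotic water 13.7% of all genes were called between meals. There Hmox1 (-2.09 ± 0.40), the iron exporter gene Slc40a1 (-0.86 ± 0.25), Cd9 (-1.50 ± 0.17), Nr4a1 (-2.61 ± 0.79) and C1s1 (-0.52 ± 0.17) were lower after fast food than after chow. Mertk, a receptor for apoptotic cells (0.49 ± 0.13), the Notch ligand gene Dll4 (1.21 ± 0.35) and C8a (1.31 ± 0.24) were higher. Hmox1, Cd9 and C8a kept these calls in 16 of 16 fits that left out a library, Mertk and Dll4 in 12, Slc40a1 in 10, Nr4a1 in 4 and C1s1 in 3.

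Markers of other liver cells were set beside the 10 genes. The 10 sinusoidal endothelium genes summed to 710 to 770 CPM in fast food antibiotic and 653 to 756 CPM in chow antibiotic livers. In control water they summed to 563 to 683 CPM with fast food and 600 to 721 CPM with chow. EdgeR called 1 of the 10 lower and 0 higher with chow, and 0 either way with fast food. The 1 gene was Kdr, with 67.4 ± 11.1 CPM in chow antibiotic and 107.7 ± 5.52 CPM in chow control livers (-0.68 ± 0.13, edgeR adjusted p = 0.00141). With chow 2 were lower and 3 higher at an unadjusted p under 0.05, and 1 lower and 1 higher by DESeq2, so the sum holds changes in both directions. At an unadjusted p under 0.05, 1 was lower and 4 were higher with fast food, where DESeq2 called 0 lower and 1 higher. In the averaged contrast edgeR called 1 lower and 2 higher. With fast food the endothelial sums were higher in all 4 antibiotic libraries than in all 4 controls. The sum of the 10 macrophage genes over that sum was 0.224 to 0.398 in fast food antibiotic, against 0.566 to 0.681 in fast food control livers. With chow it was 0.235 to 0.330 in antibiotic, against 0.392 to 1.135 in control livers, so within each meal the waters did not overlap on this ratio, which cancels the library scaling. The 5 hepatocyte genes summed to 154770 to 215356 CPM in chow antibiotic livers, against 104114 to 129415 CPM in chow control livers, with 3 of 5 called higher, and with fast food edgeR called 0 of 5 (1 at an unadjusted p under 0.05, 1 by DESeq2). Of 10 stellate cell genes 3, of 5 tested dendritic cell genes 3 and of 2 tested B cell genes 2 were also lower with chow. Among all genes 13.2% were called lower there. The dendritic and B cell genes called were near the floor. Their means were 0.036 to 0.12 CPM in chow antibiotic and 0.44 to 0.74 CPM in chow control livers. The better expressed genes of the dendritic cell list, Zbtb46 (11.8 and 11.9 CPM) and Clec9a (3.88 and 3.75 CPM), were not called. Which cells their transcripts came from was not tested. The T and NK cell genes tested, Cd4 and Klrb1c, were not called in either meal. With fast food edgeR called 0 stellate cell genes (3 at an unadjusted p under 0.05, 1 by DESeq2), 0 dendritic cell genes (0 by either measure) and 1 B cell gene. Of 4 erythroid genes 1 was lower with chow, Alas2, which makes heme in red cell precursors (14.3 ± 4.72 CPM in chow antibiotic and 40.0 ± 9.13 CPM in chow control livers, -1.48 ± 0.33, edgeR adjusted p = 0.0059). Of 4 tested cholangiocyte genes 1 was lower with fast food, the keratin gene Krt19 (-1.70 ± 0.43, edgeR adjusted p = 0.0329), a call kept in 10 of 16 fits that left out a library. The neutrophil genes summed to 1.32 to 9.55 CPM in fast food antibiotic, 4.01 to 84.8 CPM in chow antibiotic, 1.66 to 3.21 CPM in fast food control and 2.196 to 13.1 CPM in chow control livers. EdgeR called 0 of the 4 tested with either meal (2 with chow and 0 with fast food at an unadjusted p under 0.05, and 0 by DESeq2). The 11 acute phase genes, made by hepatocytes in inflammation, summed to 8984 to 41019 CPM in fast food antibiotic, 16985 to 38574 CPM in chow antibiotic, 11996 to 13839 CPM in fast food control and 14458 to 23510 CPM in chow control livers. EdgeR called 0 of them with either meal (1 each at an unadjusted p under 0.05, and 1 with chow by DESeq2) and 1, Apcs, higher in the averaged contrast (1.39, edgeR adjusted p = 0.0405). When the 3 libraries rich in these transcripts (fast food antibiotic replicate 2, chow antibiotic replicate 4 and chow control replicate 2) were left out, 9 of the 10 macrophage genes were called lower with chow and 5 with fast food. The part of these other changes in the macrophage result was not tested.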

How the data were processed

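Mouse liver RNA was made into 16 poly(A)-selected libraries and sequenced as single reads of 50 bases, per the labels' protocols. The authors deposited 1 table of raw read counts per Ensembl gene, not normalized. Per the submitters' processing notes, STAR, HTSeq, cutadapt, FastQC, edgeR and DESeq2 were used, with the build GRCm38.p6. The sources used here do not state the annotation release, the strand setting or the handling of multi-mapped reads. All values of the columns mapped to a sample were used, and total counts ran from 8954378 to 18954655 per library.

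Counts were tested with edgeR 4.0.16 (R 4.3.3, limma 3.58.1): filterByExpr with a minimum count of 10 (13180 of 25006 genes), TMM scaling, 1 mean for each of the 4 groups over all 16 libraries, the robust quasi-likelihood F test, two-sided, and Benjamini-Hochberg adjustment over all genes tested at 0.05. The common biological coefficient of variation was 0.222. The contrasts share libraries where they share a group. Standard errors are the log2 fold change over the square root of F. CPM use TMM library sizes, and RPKM use union exon lengths of GENCODE M21. The model and its code were tested on simulated data.

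The 10 genes and the other lists were chosen with earlier results of these data known. Of the other lists, up to 4 called genes of lowest p per list and comparison are named, plus Adgre1, Cd68, Cd163, Marco, Clec1b, Ccl2, Csf1 and Il34 whether called or not. Alternatives were DESeq2 1.42.0, other scaling and filters, the 2 groups alone, a replicate block, leaving out each library, leaving out 3 libraries rich in acute phase transcripts (known from earlier results), and the rRNA-like share as a covariate, as a split at 1% and by side. No replicate of a group matched another within sampling noise.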

Additional observations from a re-analysis of the deposited data

Results flagged for a closer look

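Cd5l in chow control replicate 3 was 220.3 CPM, against 66.0 to 91.0 CPM in the other 3 libraries of that group. Its gap to the nearest library was 0.838 of the group's range, above Dixon's critical ratio for 4 samples. It was the 1 value so marked among 40 pairs of gene and group, where chance marks about 1 in 20. The same library was the highest of its group for 10 of the 10 genes. Without it the antibiotic effect on Cd5l with chow still passed in edgeR.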

How the results depend on the processing

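The direction of the antibiotic effect was lower for 10 of 10 genes in all 28 settings with chow and all 26 with fast food, and all 10 were called in each of 25 settings of the averaged contrast. With chow the 9 calls became 0 among the libraries with an rRNA-like share over 1%, and 6 to 10 when 1 library was left out. With fast food the 7 calls became 4 with no filter on low counts, 0 once the model held the share or its split at 1%, and 1 to 9 when 1 library was left out. The fast food effect could not be fitted within a side of the split, which held 1 antibiotic library under 1% and no control library over 1%. Between meals in antibiotic water the 0 calls became 1 with DESeq2 and 0 to 1 when 1 library was left out, in both cases Ccr2. In control water and for the interaction the count was 0 in every setting run, and for any difference it was 8 with the share as a covariate and 10 otherwise. With the replicate number as a block (replicate block), 9 of the 10 were called with chow, 6 with fast food, 10 averaged over meals, 0 between meals in either water, 0 for the interaction and 10 for any difference. The shared numbers gave no pairing: 3 of 24 same-number pairs had correlated deviations over 0.1 (-0.22 to 0.36). DESeq2 called 9 with chow and 10 with fast food. When 3 libraries rich in acute phase transcripts were left out, 9 were called with chow and 5 with fast food. TPM in place of RPKM moved the scale of the levels and left the ranks as they were. For Ccr2, with 1 to 78 reads per library, depth limits the precision.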
